A study of Mus musculus with 21 samples.

Results

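The comparison set dendritic cells after 8 h with Pam3CSK4 against unstimulated cells, in 6 of the 21 arrays of the series. Pam3CSK4 is a synthetic triacylated lipopeptide that activates Toll-like receptor 2 (TLR2) together with TLR1. The cells were bone marrow-derived dendritic cells (BMDCs) of the C57Bl6 strain. Their genotypes were wild type (WT), relb-/-, which lacks the NF-kB subunit RelB, and crel-/-relb-/-, which lacks both RelB and c-Rel. The members were chosen by label: the array given Pam3CSK4 for 8 h in each of the 3 genotypes, and the unstimulated array of the same genotype at 0 h. The labels of the unstimulated arrays carry a CpG title, and these arrays are also the starting point of the series' CpG time course. The samples used here hold no unstimulated array at 8 h, so stimulation and time in culture cannot be told apart. Each genotype had 1 array per condition, the dose and the age of the mice are not given in the labels, and separate cultures or animals are not stated for the arrays of a genotype. The p-values below therefore set the mean difference against its spread over the 3 genotypes. That spread was drawn largely from other probes of similar intensity, so a called gene can still differ in size of change between genotypes.

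Dendritic cells sense microbial lipopeptides at the cell surface through TLR2, which pairs with TLR1 for triacylated and with TLR6 for diacylated ligands, and CD14 and CD36 help to deliver the ligand. The adaptor MyD88, IRAK kinases and TRAF6 carry the signal to NF-kB and MAP kinases, which switch on cytokines, chemokines and the inhibitors that later limit the response. Activated dendritic cells then mature: they raise costimulatory molecules, change how they load antigen and take up less material.

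The labelled cell type was checked against its markers. H2-Ab1, an MHC class II chain, was bright, with intensities of 5953, 3859.5 and 6201 at 0 h and 5072, 3695 and 6882 at 8 h (in the order WT, relb-/-, crel-/-relb-/-, as in all sentences below). Itgax, the gene of CD11c, stood at 251, 303 and 319 at 0 h and 259, 240.1 and 322 at 8 h. Both lay far above 47.3, the median of all values and the only yardstick of brightness used here. Xcr1, Clec9a, Flt3 and Cd209a, which mark particular subsets or stages of dendritic cells, were at 47.3 or below in all 6 arrays. Macrophage and monocyte markers were also bright, and the summed intensity of 11 lay between 24364 and 25514 at 0 h and between 23974 and 30487 at 8 h. The sum of 13 conventional dendritic cell markers, H2-Ab1 among them, was lower, between 7689 and 9842 at 0 h and between 6853.5 and 10628 at 8 h. These sums cover different probes and give no shares of cells. These are bulk samples, in which fewer cells of a type and less RNA per cell cannot be told apart.

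The targeted genes were read first. Relb was at 160.0, 65.9 and 60.6 at 0 h and 235, 131 and 170.4 at 8 h, lower in both mutants than in WT at each time. It rose (1.01 ± 0.15, adjusted p = 4.92e-04, log2 change ± SE; adjusted p = 0.0949 without the genotype term), also in the mutants, in which the probe still gave signal. The rise was smallest in WT. The change was 1.24, 1.02 and 0.77 without the WT, the relb-/- and the crel-/-relb-/- pair. Where the probe lies relative to the deleted part was not examined. Rel, the gene of c-Rel, was at 128, 119 and 38.8 at 0 h and 107, 107 and 35.4 at 8 h, below the median of all values in crel-/-relb-/- alone, and was not called (-0.18 ± 0.09, adjusted p = 0.263).

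After 8 h with Pam3CSK4 the arrays showed a broad change of similar size in both directions. Of 16593 named genes, 2539 were called at an adjusted p under 0.05 (15.3%), of which 1240 were higher (7.47% of all genes) and 1299 lower (7.83%). Changes of at least 2-fold were found for 242 higher genes (1.46%) and 200 lower genes (1.21%). All of these 242 and 200 genes moved the same way in the 3 genotypes, and 165 and 135 of them passed 2-fold in each genotype. The 3 arrays at 8 h did not overlap the 3 at 0 h for 4126 genes (24.9%), and this held for 222 of the 242 and for 196 of the 200. The intensities still hold their background, which understates the folds of dim genes. The count of calls fell to 718 higher and 782 lower when the genotype term was left out of the model, while the 2-fold counts then were 223 and 197.

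The largest increases were in chemokines that attract neutrophils. Cxcl5 was listed at 39.8, 33.7 and 33.5 at 0 h and 1365, 2827 and 2366 at 8 h, a rise of 58.8-fold (5.88 ± 0.19, adjusted p = 2.52e-09). Cxcl1 went from 50.4, 141 and 150.4 to 2777, 8775 and 4301, or 46.1-fold (5.53 ± 0.18, adjusted p = 2.45e-09). At 0 h in WT, Cxcl5 lay below the median of all values and Cxcl1 just above it. Both genes were among the brighter probes of the arrays at 8 h, with relb-/- the highest of the 3. Ppbp, the gene of a further CXC chemokine best known from platelets, was at 92.4, 109.7 and 132 at 0 h and 2535, 2730.5 and 4796 at 8 h (4.87 ± 0.12, adjusted p = 8.70e-10). Cxcl2 was at 83.8, 114 and 103 at 0 h and 3330.0, 2934 and 1453 at 8 h (4.61 ± 0.21, adjusted p = 2.88e-08), here with the crel-/-relb-/- array the lowest at 8 h. In none of these 4 genes did the arrays at 8 h overlap those at 0 h.

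3 of these chemokine genes have a promoter in the RefSeq table for GRCm38.p6, and they lie close together on mouse chromosome 5, while Cxcl5 has no entry there. The 250 bases before the start of each are shown because they are the leading genes of the response and NF-kB is the pathway the series is about. Capitals mark matches to the kB consensus, the motif of NF-kB, searched on both strands. They lie on the + strand at chr5:90890995-90891244 (Cxcl1), chr5:90903649-90903898 (Cxcl2) and chr5:90768268-90768517 (Ppbp).
Cxcl1: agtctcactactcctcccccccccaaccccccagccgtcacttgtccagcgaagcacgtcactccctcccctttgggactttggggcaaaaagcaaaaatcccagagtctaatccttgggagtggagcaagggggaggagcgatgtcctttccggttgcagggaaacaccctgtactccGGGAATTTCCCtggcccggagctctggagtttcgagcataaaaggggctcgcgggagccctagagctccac
Cxcl2: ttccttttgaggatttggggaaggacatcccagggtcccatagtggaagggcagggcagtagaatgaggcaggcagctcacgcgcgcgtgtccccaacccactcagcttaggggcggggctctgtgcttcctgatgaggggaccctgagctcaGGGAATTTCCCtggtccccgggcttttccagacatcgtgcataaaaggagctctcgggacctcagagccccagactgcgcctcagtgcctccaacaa
Ppbp: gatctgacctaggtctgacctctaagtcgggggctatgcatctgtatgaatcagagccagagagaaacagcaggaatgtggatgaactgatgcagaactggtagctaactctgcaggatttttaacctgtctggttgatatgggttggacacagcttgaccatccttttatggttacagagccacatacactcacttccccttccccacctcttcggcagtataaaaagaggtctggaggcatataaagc
Cxcl1 and Cxcl2 hold the same 11 letters, which match on both strands with an overlap, from base -71 to -61 and from -97 to -87 relative to the start. Ppbp holds no match in this window, but TGANTCA, the AP-1 motif, once (a palindrome, so read on both strands). It also holds TATAAA, the letters of a TATA box, at 2 places on the + strand, from base -30 to -25 and from -8 to -3. GAAANNGAAA, a core of the interferon-stimulated response element, was searched as well and has no match in these 3 windows. Among the 15 genes with the largest increase, 14 had a promoter in the table, and 3 of these (Cxcl1, Cxcl2 and Ednrb) held a kB match. An AP-1 match was held by 1 (Ppbp) and a match to GAAANNGAAA by 1 (Saa3). The letters TATAAA were held by 6, counted at any place in the window and on either strand. Over all measured genes with a promoter, 1271 of 13336 held a kB match (9.53%), against 33 of 193 genes called at least 2-fold higher (17.1%) and 23 of 150 called at least 2-fold lower (15.3%). The share was also above that of all genes for the other motifs. For AP-1 it was 7.39% over all, 13.5% among the higher genes and 11.3% among the lower genes. For GAAANNGAAA it was 3.62%, 7.25% and 6% and for TATAAA 13.1%, 17.1% and 14.7%. A match describes letters in a window, and no binding was measured.

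The other leading increases were in secreted defence proteins, inflammatory cytokines and surface receptors. Saa3, an acute-phase serum amyloid, was at 74.1, 51.7 and 39.2 at 0 h and 2219, 1349 and 866 at 8 h (4.69 ± 0.12, adjusted p = 8.70e-10). Lcn2, which withholds iron from bacteria by binding their siderophores, was at 409.7, 555 and 385 at 0 h and 10119, 9117 and 7084 at 8 h (4.29 ± 0.11, adjusted p = 9.61e-10). Lcn2 was thus among the brightest probes of the arrays at 8 h in every genotype. Il1b, a cytokine of fever and neutrophil recruitment, rose 17.1-fold, from 391, 539 and 452 to 11043, 10668 and 4058 (4.10 ± 0.22, adjusted p = 1.20e-07). Tnf went from 166, 226 and 348 to 4953, 4969 and 1703 (3.88 ± 0.35, adjusted p = 8.64e-06). In both cytokines the WT and relb-/- arrays at 8 h were close to each other and the crel-/-relb-/- array was lower. The other genes among the 15 were Ednrb, an endothelin receptor (3.62), Clec4e, the mycobacterial glycolipid receptor Mincle (3.58), Gsta3, a glutathione transferase (3.51), Slpi, a protease inhibitor (3.46), Mcoln2, an endolysosomal cation channel (3.43), Fpr2, a formyl peptide receptor (3.42), and Cav1, the caveolar coat protein caveolin-1 (3.38). The second probe of Gsta3, with a mean of 40.5 at 0 h, changed by -0.03, and the 2 further probes of Ednrb by 2.84 and 0.41.

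**Figure D1:**
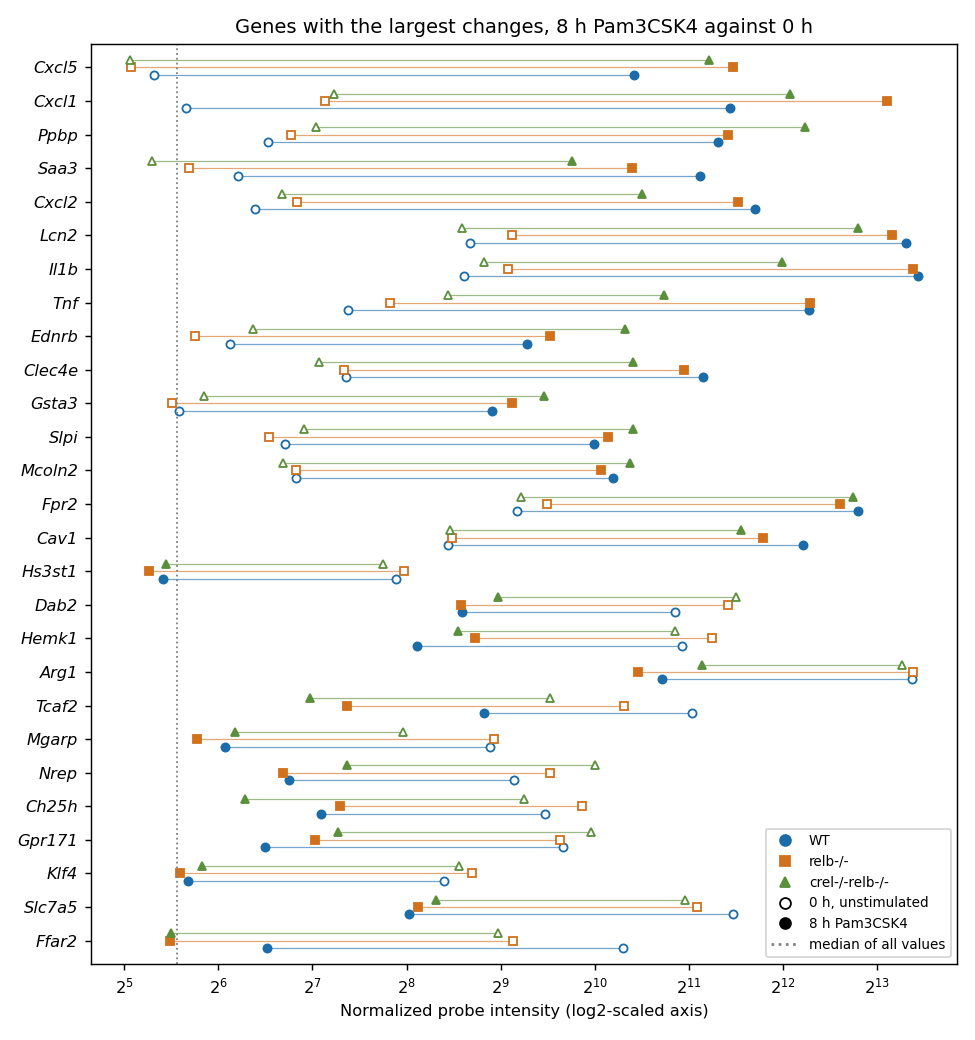
Normalized intensity on a log2-scaled axis for the 15 genes with the largest increase and the 12 with the largest decrease; open symbols are 0 h, filled symbols 8 h with Pam3CSK4, and each line joins the 2 arrays of 1 genotype. The 3 lines of a gene run the same way throughout, and the dotted line at 47.3 is the median of all values.

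The largest decreases covered receptors, transporters and enzymes. Ffar2, a receptor for short-chain fatty acids, fell from 1262, 559.6 and 502 to 91.5, 45.0 and 45.2 (-3.63 ± 0.11, adjusted p = 2.16e-09), below the median of all values in both mutants. Slc7a5, the light chain of a transporter of large neutral amino acids, was at 2839, 2176 and 1992 at 0 h and 261, 278 and 317 at 8 h (-3.02 ± 0.14, adjusted p = 3.48e-08). Arg1, which degrades arginine and marks alternatively activated macrophages, was at 10574, 10619.5 and 9795 at 0 h and 1680.4, 1407 and 2256 at 8 h (-2.56 ± 0.12, adjusted p = 4.35e-08), a 5.91-fold fall of one of the brightest probes at 0 h. For all 3 genes the groups stood well apart in each genotype. Klf4, a transcription factor (-2.85), Gpr171, a G protein-coupled receptor (-2.81), and Ch25h, which makes 25-hydroxycholesterol (-2.64), fell too. The 12 also held Nrep (-2.62), Mgarp, a mitochondrial protein (-2.58), Tcaf2, a regulator of TRP channels (-2.57), Hemk1, a methyltransferase (-2.55), Dab2, an endocytic adaptor (-2.54), and Hs3st1, a heparan sulfate sulfotransferase (-2.49). The plot of the 27 genes shows that no gene overlapped between the groups.

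Gene lists were used to describe the rest, 24 for pathways and 10 for cell types, with 533 of their 595 genes measured; they were drawn up with earlier results of these data known. Each list is given by its counts, and most pathway lists also by their median. These are to be read against 7.47% higher, 7.83% lower and a median log2 change of 0.00 over all genes. Medians of the cell type lists lay between -0.15 (eosinophil) and 0.09 (stromal). Counts at an unadjusted p under 0.05 are to be read against 2096 higher and 2169 lower of all 16593 genes. No list was tested as a set.

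**Figure D2:**
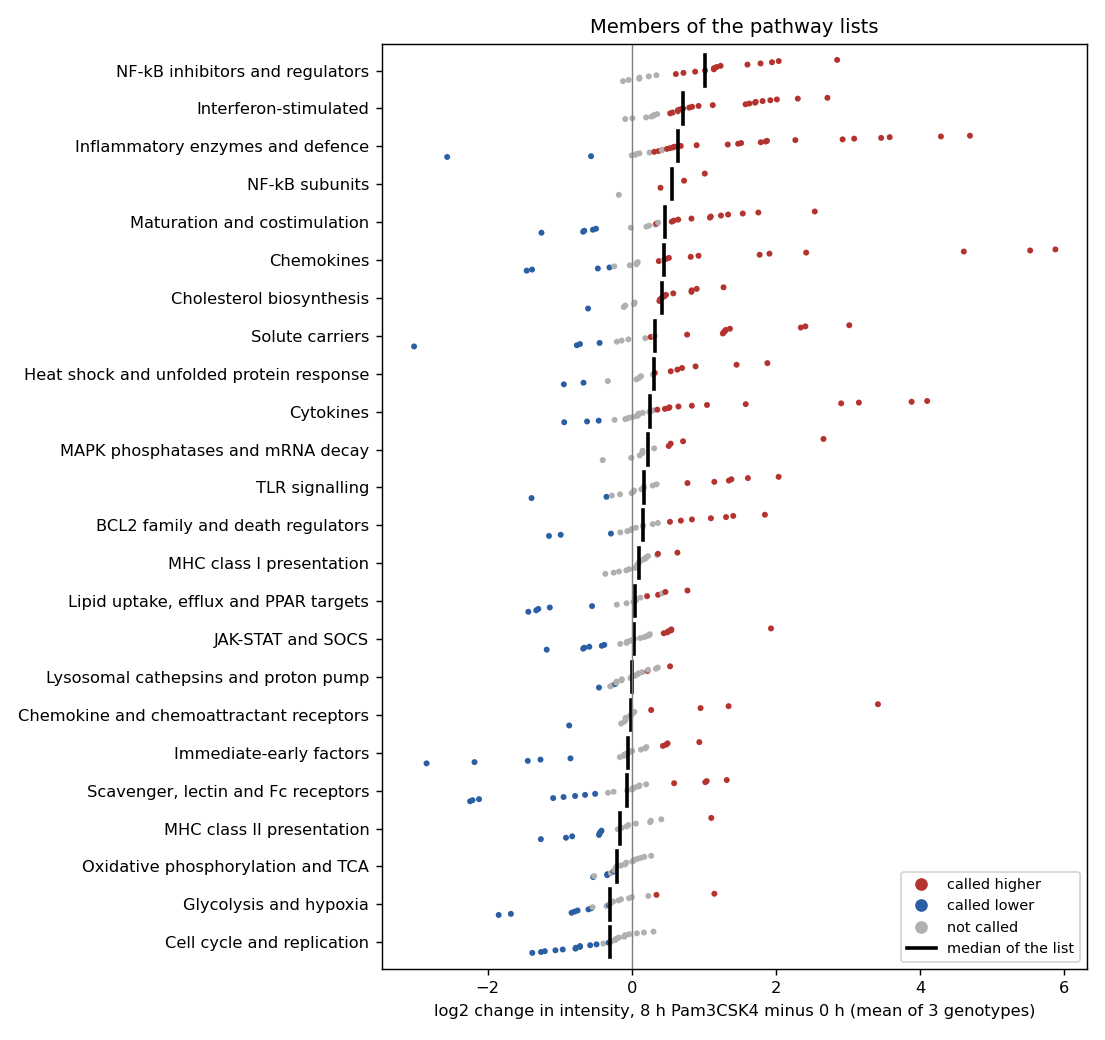
Log2 change at 8 h of every measured member of the 24 pathway lists (x axis, mean of 3 genotypes), ordered by the list median (black bar); red and blue points are genes called higher and lower, grey points were not called. Medians run from 1.02 for the inhibitors and regulators of NF-kB to -0.31 for the cell cycle list.

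Among 18 genes of TLR signalling, 6 were higher and 2 lower (1 without the relb-/- pair, the crel-/-relb-/- pair or the genotype term), with a median of 0.17. All 3 receptor chains that can bind lipopeptides rose. Tlr2 was at 520.1, 993 and 783 at 0 h and 1989, 1677 and 1995 at 8 h (1.35 ± 0.17, adjusted p = 1.56e-04). Tlr1 was at 39.9, 43.0 and 47.3 at 0 h and 128, 155 and 117 at 8 h (1.61 ± 0.11, adjusted p = 9.59e-07), starting at or below the median of all values. Tlr6 rose by 1.14 on the log2 scale. The helpers Cd14 (1.38 ± 0.10, adjusted p = 1.35e-06) and Cd36 (0.77 ± 0.10, adjusted p = 2.05e-04) also rose. The lipopolysaccharide receptor Tlr4 went the other way, from 375, 544 and 428 to 175, 144 and 192 (-1.39 ± 0.15, adjusted p = 4.56e-05). Of the signalling chain, the inhibitory kinase Irak3, also called IRAK-M, rose 4.10-fold, from 218, 214 and 199 to 871, 795 and 924 (2.04 ± 0.11, adjusted p = 1.53e-07). The adaptor Myd88 was not called, at 1617, 1809 and 1537 at 0 h and 1756, 1823 and 1394 at 8 h. Traf6, a ubiquitin ligase of the chain, was lower at all 3 of its probes. Its brightest probe, used here, changed least (-0.35 ± 0.10, adjusted p = 0.0425), and the others changed by -1.23 (adjusted p = 1.21e-05, means of 185.6 at 0 h and 79.4 at 8 h) and -0.48 (adjusted p = 0.0323). The brightest probe had an adjusted p of 0.0941, 0.206 and 0.126 without the WT, the relb-/- and the crel-/-relb-/- pair, and 0.151 without the genotype term, while the mean of the probes gave -0.68 (adjusted p = 0.00201).

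The inhibitors and regulators of NF-kB had the highest median of all pathway lists, 1.02, with 13 of 19 higher and 0 lower by limma (14 and 0 at an unadjusted p under 0.05). Nfkbiz, an atypical IkB protein that works in the nucleus, was at 59.1, 65.0 and 60.9 at 0 h and 484, 469 and 385 at 8 h (2.85 ± 0.11, adjusted p = 9.64e-09). Traf1, an adaptor of TNF receptors, rose 4.11-fold (2.04 ± 0.11, adjusted p = 1.20e-07), and its crel-/-relb-/- array was the lowest of the 3 at both times, with 215, 217 and 109 at 0 h and 812, 902 and 482 at 8 h. Tnfaip3, the gene of the ubiquitin-editing enzyme A20, was at 191, 476 and 226 at 0 h and 1034, 994 and 822 at 8 h (1.79 ± 0.19, adjusted p = 4.60e-05); its 0 h array in relb-/- was already above those of the other genotypes. The IkB genes Nfkbid (1.94), Nfkbie (1.60) and Nfkbia (0.88) and the IkB-like Bcl3 (1.14) rose as well. Nfkbia, the classical inhibitor IkB-alpha, had overlapping groups, with 977, 1545 and 800.1 at 0 h and 2415, 2189.9 and 1418 at 8 h, and an adjusted p of 0.0571 without the genotype term. Also higher were the kinase genes Ikbke (1.23) and Map3k8 (1.14), the A20 partner Tnip1 (1.18) and Birc3 (1.02). Of the 4 subunit genes measured, Relb, Nfkb2 (0.72 ± 0.14, adjusted p = 0.00305) and Rela (0.40 ± 0.11, adjusted p = 0.0272) were called higher, and 1 of the 4 without the genotype term. Relb is the targeted gene of both mutants, and its rise was smallest in WT, as given above. The call on Rela was lost without any 1 of the 3 pairs, with adjusted p = 0.131, 0.0849 and 0.0587 without WT, relb-/- and crel-/-relb-/-.

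Of 28 cytokine genes, 12 were higher and 3 lower, with a median of 0.25. Il6, an inducer of the acute-phase response, was at 112, 151 and 96.9 at 0 h and 1055, 1391 and 781 at 8 h (3.15 ± 0.11, adjusted p = 3.71e-09), and the groups stood apart in each genotype. Il1a was at 423, 657 and 709 at 0 h and 6253, 5372 and 2465 at 8 h (2.90 ± 0.27, adjusted p = 1.08e-05). Il1rn, which encodes the antagonist of the IL-1 receptor, rose 2.99-fold (1.58 ± 0.11, adjusted p = 1.46e-06). Inhba, an activin subunit, rose 2.06-fold (1.04 ± 0.10, adjusted p = 1.57e-05). Il12a, the p35 chain of interleukin-12, was dim at 0 h and stood at 85.9, 74.2 and 57.3 at 8 h (0.65 ± 0.12, adjusted p = 0.00309). Vegfa fell (-0.94 ± 0.16, adjusted p = 0.00157), as did Tgfb1 (-0.62 ± 0.12, adjusted p = 0.00343). Il10 and Ifnb1 did not pass the test. Il10 stayed below the median of all values in all 6 arrays, at 38.0, 40.3 and 37.5 at 0 h and 42.6, 39.1 and 41.4 at 8 h. Ifnb1, the gene of interferon beta, was above that median in relb-/- only, with 38.3, 102 and 35.5 at 0 h and 40.2, 150.2 and 38.8 at 8 h (0.25 ± 0.10, adjusted p = 0.152).

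The 21 chemokine genes split, with 11 higher, 4 lower and a median of 0.44. Beside the neutrophil attractants above, Cxcl3, of the same group, was at 39.6, 44.2 and 42.7 at 0 h and 157, 262 and 278 at 8 h (2.42 ± 0.13, adjusted p = 1.20e-07). Ccl3 was at 1039.8, 1527 and 2386 at 0 h and 7472, 5785 and 4647 at 8 h (1.91 ± 0.24, adjusted p = 1.39e-04), and Cxcl16, a scavenger-receptor chemokine, rose 3.42-fold (1.77 ± 0.12, adjusted p = 7.18e-07). The monocyte attractants Ccl7 and Ccl12 fell. Ccl7 was at 1432, 1600.3 and 2062 at 0 h and 503, 851 and 530.1 at 8 h (-1.46 ± 0.16, adjusted p = 4.66e-05), and Ccl12 at 135, 162 and 163 at 0 h and 77.1, 54.8 and 47.4 at 8 h (-1.38 ± 0.15, adjusted p = 5.10e-05). Ccl2, a further monocyte attractant, was not called and differed in sign between genotypes, with changes of 0.61 (WT), 1.01 (relb-/-) and -0.31 (crel-/-relb-/-). Ccl5 and Ccl17 were among the brightest probes at both times and moved little, with 0.47 and -0.31 (adjusted p = 0.0977 and 0.0799 without the genotype term). Of 12 receptor genes 4 were higher and 1 lower, with a median of -0.01. Ccr7, which guides mature dendritic cells to lymph nodes, was at 385, 295 and 119 at 0 h and 557, 597 and 294 at 8 h (0.95 ± 0.14, adjusted p = 5.32e-04); the groups overlapped, and the adjusted p was 0.202 without the genotype term. Cxcr4, which holds cells in the marrow, fell (-0.87 ± 0.12, adjusted p = 3.36e-04, and 0.0549 without the genotype term). Without that term 6 chemokines were called higher and 2 lower, and 0 receptors lower.

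Of 30 genes of inflammatory enzymes and defence proteins, 21 were higher and 2 lower (1 without the crel-/-relb-/- pair or without the genotype term), with a median of 0.64. After Saa3, Lcn2, Clec4e and Slpi, the next were Hp, the haemoglobin-binding haptoglobin (3.09), and Marco, a scavenger receptor for bacteria (2.92). Sod2, the mitochondrial superoxide dismutase, rose 3.67-fold, from 2015, 1882 and 2025 to 7381, 6547 and 7857 (1.88 ± 0.08, adjusted p = 1.76e-08). The complement factor Cfb (1.86), the collagenase Mmp13 (1.79) and the membrane protease Mmp14 (1.47) were higher as well. The arginine enzymes moved unequally: Ass1, which regenerates arginine, rose by 1.33 and Arg1 fell. Nos2, the inducible nitric oxide synthase, was at 170.1, 182 and 261 at 0 h and 306, 279 and 388 at 8 h (0.68 ± 0.11, adjusted p = 0.00112). Ptgs2, the inducible cyclooxygenase, was dim, at 42.8, 39.3 and 45.0 at 0 h and 76.2, 71.3 and 47.8 at 8 h (0.59 ± 0.13, adjusted p = 0.00823, and 0.0648 without the WT pair).

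Of 22 genes of maturation and costimulation, 12 were higher and 5 lower, with a median of 0.46. H2-M2, a nonclassical MHC class I gene of dendritic cells, was at 2792, 2222 and 2698 at 0 h and 16761, 13813 and 14174 at 8 h (2.54 ± 0.07, adjusted p = 2.16e-09), a 5.81-fold rise that varied little over genotypes. Cd40, the receptor for T cell help, was at 401, 1227 and 233 at 0 h and 2682, 3884 and 423 at 8 h (1.76 ± 0.25, adjusted p = 3.48e-04). The crel-/-relb-/- array of Cd40 at 8 h lay below the relb-/- array at 0 h, so the groups overlapped, and the adjusted p was 0.226 without the genotype term. Tnfsf4, the OX40 ligand, rose by 1.54, and Icam1, an adhesion molecule, was at 1290.1, 1445 and 1263 at 0 h and 2858, 2893 and 2707 at 8 h (1.08 ± 0.09, adjusted p = 5.08e-06). Fscn1, the actin bundler of dendrites, was at 530.2, 369 and 46.5 at 0 h and 1469, 776 and 77.9 at 8 h (1.10 ± 0.14, adjusted p = 1.38e-04). Its level in crel-/-relb-/- was below that of the other genotypes at both times, and Marcksl1 had the same order, with 850.1, 400.5 and 108 at 0 h and 1730.0, 1065 and 261 at 8 h. Not all maturation genes rose. Cd86 was at 1787, 2894 and 1573 at 0 h and 1470.3, 1829.5 and 767 at 8 h and was called lower (-0.66 ± 0.13, adjusted p = 0.00377). Pdcd1lg2, the gene of the inhibitory ligand PD-L2, was at 456, 564 and 367 at 0 h and 203, 182 and 188 at 8 h (-1.25 ± 0.13, adjusted p = 3.77e-05). Cd80 was not called (0.20 ± 0.15, adjusted p = 0.520), and its crel-/-relb-/- pair differed in sign from the others, with 0.60 (WT), 0.35 (relb-/-) and -0.34 (crel-/-relb-/-). Cd83 was called lower (-0.50 ± 0.11, adjusted p = 0.00646), with an adjusted p of 0.0935 without the relb-/- pair. Without the genotype term, 5 members were higher and 2 lower, and Fscn1, Marcksl1, Cd86 and Cd83 had adjusted p = 0.671, 0.427, 0.265 and 0.0509, and without the relb-/- pair 3 were lower.

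In MHC class II presentation, genes of peptide exchange were lower, and the peptide-binding chains were not called. H2-Ab1, given above, and Cd74, the invariant chain, at 11557, 8862 and 11403 at 0 h and 9774, 8056 and 11041 at 8 h, were not called, nor was H2-Aa (-0.19) or H2-Eb1 (0.25). H2-DMa, a chain of the exchange factor that removes the invariant chain fragment, was at 4399, 4334 and 4408 at 0 h and 2118, 1932 and 1487 at 8 h (-1.26 ± 0.10, adjusted p = 4.49e-06). Its partners H2-DMb1 (-0.91 ± 0.11, adjusted p = 1.41e-04) and H2-DMb2 (-0.83 ± 0.11, adjusted p = 2.92e-04) fell too, with no overlap in any of the 3 genes. H2-Oa (-0.45) and H2-Ob (-0.44) were called lower as well. By limma, H2-Oa had an adjusted p of 0.188 without the relb-/- pair and 0.0739 without the genotype term. Across the 16 genes, 7 were lower and 1 higher (2 without the crel-/-relb-/- pair), with a median of -0.17, and 4 were lower without the relb-/- pair and 4 without the genotype term. The 1 higher member was Clec4n, a lectin receptor better known as Dectin-2 and not part of the presentation machinery, at 4819, 4803 and 4815 at 0 h and 9164, 9618 and 12524 at 8 h (1.10 ± 0.09, adjusted p = 3.10e-06). Of 19 class I genes, 2 were higher and 0 lower by limma (3 and 2 at an unadjusted p under 0.05), with a median of 0.09, and leaving out any 1 of the 3 pairs, or the genotype term, left 1 higher.

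Of 27 interferon-stimulated genes, 19 were higher and 0 lower by limma (22 and 0 at an unadjusted p under 0.05). Their median was 0.71, which was 0.99, 0.54 and 0.64 over the 3 genotypes. Rsad2, the antiviral protein viperin, was at 143, 1444 and 126 at 0 h and 1556, 4218 and 1124 at 8 h (2.71 ± 0.26, adjusted p = 1.73e-05). Ifit3 (2.30), the guanylate-binding proteins Gbp2 (1.92) and Gbp3 (1.81) and Cmpk2, at 47.1, 143 and 45.1 at 0 h and 157, 427 and 134 at 8 h (1.63 ± 0.10, adjusted p = 3.36e-07), were higher too. In Rsad2 and Cmpk2 the relb-/- array at 0 h lay above the crel-/-relb-/- array at 8 h, so the groups overlapped although each genotype was higher at 8 h. Without the genotype term 5 of the 27 were called, Cmpk2 had an adjusted p of 0.0604 and Ifit3 of 0.135, and 1 of the 19, Cxcl10, is also in the chemokine list.

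Of 18 immediate-early transcription factors, 4 were called higher and 5 lower, with a median of -0.05; the higher count was 2 without the relb-/- pair and 2 without the genotype term. Klf4 fell most of the list, from 338, 415 and 377 to 51.4, 48.5 and 56.7 (-2.85 ± 0.11, adjusted p = 1.00e-08). Fosb was at 169, 97.1 and 397 at 0 h and 38.2, 37.6 and 48.3 at 8 h (-2.18 ± 0.22, adjusted p = 2.31e-05), Klf2 at 201, 181 and 242 at 0 h and 73.6, 71.0 and 83.8 at 8 h (-1.44 ± 0.10, adjusted p = 1.02e-06) and Egr1 at 689, 1032 and 1655 at 0 h and 455, 474 and 391 at 8 h (-1.27 ± 0.21, adjusted p = 0.00109). At 0 h the crel-/-relb-/- array was the highest of the 3 for Fosb, Klf2, Egr1 and Fos. Fos fell by 0.85 on the log2 scale, and by 0.57 without the crel-/-relb-/- pair, and its adjusted p was 0.0541 without the genotype term. Atf3, a stress-induced repressor, rose by 0.94. Of 10 genes of MAP kinase phosphatases and mRNA decay, 4 were higher and 0 lower by limma (5 and 1 at an unadjusted p under 0.05), led by Zc3h12a, the endonuclease regnase-1 that cuts cytokine mRNAs, at 86.6, 107 and 98.8 at 0 h and 711, 536 and 608 at 8 h (2.66 ± 0.14, adjusted p = 7.97e-08). Of 23 genes of JAK-STAT signalling, 6 were higher and 6 lower, with a median of 0.03, and 3 were lower without the genotype term. Socs3, which limits IL-6 signalling, was at 311, 254 and 373 at 0 h and 1402, 1563 and 744 at 8 h (1.93 ± 0.22, adjusted p = 7.97e-05), while Cish, a target of STAT5, was at 3744, 4031 and 3890.3 at 0 h and 1771, 1829 and 1553 at 8 h (-1.18 ± 0.09, adjusted p = 2.02e-06).

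Metabolic lists had medians on both sides of 0. Of 20 genes of glycolysis and hypoxia, 8 were lower and 2 higher (1 without the WT pair, the crel-/-relb-/- pair or the genotype term), with a median of -0.31. Egln3, an oxygen-sensing hydroxylase induced by hypoxia, was at 1094, 1632 and 676 at 0 h and 266, 280.0 and 347 at 8 h (-1.85 ± 0.22, adjusted p = 9.13e-05). Pdk1, which inhibits pyruvate dehydrogenase, was at 274, 294 and 262 at 0 h and 96.0, 69.3 and 96.3 at 8 h (-1.68 ± 0.13, adjusted p = 2.70e-06). Slc2a6, a lysosomal sugar transporter, rose (1.14 ± 0.12, adjusted p = 3.24e-05). In oxidative phosphorylation and the citric acid cycle, 4 of 23 were lower and 0 higher by limma (10 and 0 at an unadjusted p under 0.05), with a median of -0.21; the lower count was 2 without the relb-/- pair, 1 without the genotype term, 8 after a further quantile normalization and 9 after normexp with quantile normalization. Cholesterol synthesis had 10 higher and 1 lower of 15 and a median of 0.41, but the higher count was 6 without the WT pair, 6 without the relb-/- pair and 4 without the genotype term. Fdps, which makes farnesyl diphosphate, was at 253, 208 and 416 at 0 h and 765, 569.9 and 709.6 at 8 h (1.27 ± 0.15, adjusted p = 8.33e-05). Of 16 genes of lipid handling 4 were higher and 5 lower, and the higher count was 2 without the relb-/- pair and 1 without the genotype term. Pparg, the lipid-sensing nuclear receptor, fell from 259.9, 244 and 281 to 93.8, 109 and 110.2 (-1.33 ± 0.11, adjusted p = 4.07e-06), with -0.43 and -0.11 for its 2 dim further probes, and the stearoyl-CoA desaturases Scd1 (-1.14) and Scd2 (-1.44) were lower as well.

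Among 19 solute carriers, 10 were higher and 4 lower, with a median of 0.32. Slc40a1, the iron exporter ferroportin, was at 359, 331 and 554 at 0 h and 2695, 3049.5 and 4253 at 8 h (3.02 ± 0.10, adjusted p = 3.53e-09). Slc11a1, a divalent metal transporter of phagosomes, was at 887, 936 and 1403 at 0 h and 5581, 4554 and 6006 at 8 h (2.34 ± 0.11, adjusted p = 3.67e-08). Slc7a11, the cystine carrier that feeds glutathione synthesis, was at 597, 517 and 515 at 0 h and 3075, 2627 and 2941 at 8 h (2.41 ± 0.10, adjusted p = 1.44e-08). Slc3a2, the heavy chain shared by Slc7a5 and Slc7a11, rose by 1.28, while Slc7a5 fell as described above. Of 21 scavenger, lectin and Fc receptor genes, 4 were higher and 8 lower, with a median of -0.07, and 5 were lower without the genotype term. Mrc1, the mannose receptor, was at 698, 676 and 1394 at 0 h and 176, 112 and 313 at 8 h (-2.24 ± 0.13, adjusted p = 2.16e-07). Fcgr2b, the inhibitory Fc gamma receptor, was at 1117, 1649 and 1376 at 0 h and 325, 259.5 and 303 at 8 h (-2.21 ± 0.15, adjusted p = 7.53e-07). Clec10a, a galactose-type lectin, was at 1004, 1252 and 1009 at 0 h and 200.2, 275 and 281 at 8 h (-2.12 ± 0.12, adjusted p = 1.92e-07), and its relative Mgl2 fell by 1.09 on the log2 scale. For all 4 the arrays at 8 h lay below all arrays at 0 h.

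Genes of the cell cycle were lower or not called: 13 of 26 were lower and 0 higher by limma (17 and 2 at an unadjusted p under 0.05), with a median of -0.31. Ccnd3, a D-type cyclin, was at 958, 1423 and 1113 at 0 h and 444, 481 and 402 at 8 h (-1.38 ± 0.12, adjusted p = 5.78e-06), and its 2 further, dimmer probes gave -0.69 and -0.02. Top2a, the topoisomerase of dividing cells, was at 145, 129.6 and 188 at 0 h and 72.3, 56.1 and 63.3 at 8 h (-1.26 ± 0.12, adjusted p = 1.11e-05), and Birc5, the mitotic protein survivin, at 190.1, 158 and 210.2 at 0 h and 77.8, 69.8 and 94.2 at 8 h (-1.21 ± 0.10, adjusted p = 4.14e-06). Cdc20 (-1.06), Cdk1 (-0.78) and the replication helicase subunits Mcm2 (-0.72) and Mcm4 (-0.72) were lower too.

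The changes within each genotype were then set side by side. Across the 16593 genes, which are not independent replicates, the within-genotype log2 changes of WT and relb-/- correlated at 0.81, those of WT and crel-/-relb-/- at 0.79 and those of relb-/- and crel-/-relb-/- at 0.81. These pairs share no array. The genes past 2-fold numbered 289 higher and 215 lower in WT, 254 and 238 in relb-/-, and 245 and 213 in crel-/-relb-/-. The count of genes that passed 2-fold in opposite directions in 2 genotypes was 0. With 1 array per genotype and time, no difference between genotypes could be tested.

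The widest ranges over genotypes, among 4087 genes with a bright array, were in interferon-stimulated genes and inflammatory cytokines. Oasl2, of the oligoadenylate synthetase family, was at 155, 1548 and 147 at 0 h and 1779.8, 2501 and 521 at 8 h, which gives 3.52 (WT), 0.69 (relb-/-) and 1.82 (crel-/-relb-/-). Isg15, a ubiquitin-like antiviral protein, was at 57.3, 639 and 68.9 at 0 h and 553, 889.5 and 183 at 8 h, or 3.27 (WT), 0.48 (relb-/-) and 1.41 (crel-/-relb-/-). Ifit2 changed by 2.74 (WT), 0.76 (relb-/-) and 1.63 (crel-/-relb-/-), and Rsad2 by 3.44 (WT), 1.55 (relb-/-) and 3.16 (crel-/-relb-/-). In these 4 genes the relb-/- array was already high at 0 h and stayed the highest at 8 h. The mean change was 1.26 for Oasl2 and 0.94 for Isg15 without the WT pair, against 2.01 and 1.72 with it, and without the genotype term none of the 4 was called, with adjusted p = 0.194, 0.277, 0.233 and 0.0620 in the order given. Tnf changed by 4.90 (WT), 4.46 (relb-/-) and 2.29 (crel-/-relb-/-), and Il1a by 3.89 (WT), 3.03 (relb-/-) and 1.80 (crel-/-relb-/-). For both cytokines the crel-/-relb-/- array was the highest at 0 h and the lowest at 8 h.

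**Figure D3:**
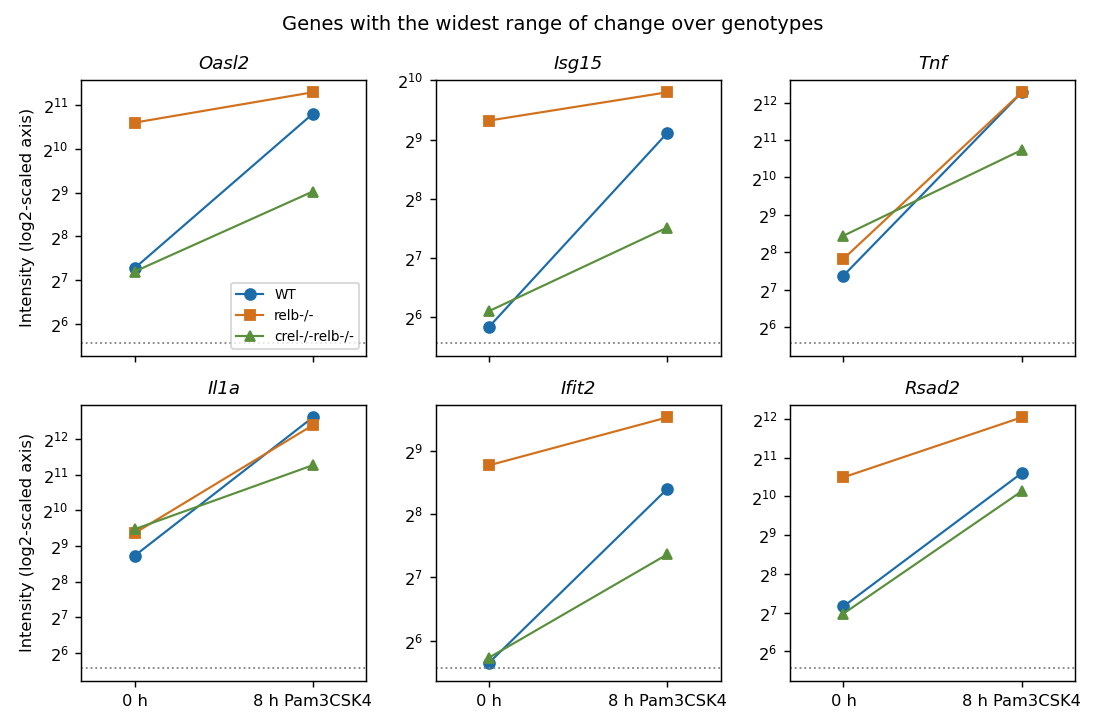
Normalized intensity (log2-scaled axis) at 0 h and after 8 h with Pam3CSK4 for the 6 genes with the widest range of change over genotypes, 1 array per point, with the median of all values dotted. The relb-/- line starts high for Oasl2, Isg15, Ifit2 and Rsad2, and the crel-/-relb-/- line is the flattest for Tnf and Il1a.

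The 8 h arrays were then set between the neighbouring times. These comparisons share arrays with the one above, so their values are given side by side and not as further evidence. Against 1 h with Pam3CSK4, 1266 genes were higher (7.63%) and 1349 lower (8.13%) at 8 h, 15.8% in all. Cxcl5 was at 52.2, 55.0 and 42.0 at 1 h, close to the median of all values, and rose after that (5.40 ± 0.17, adjusted p = 4.47e-11). Ppbp (4.54), Lcn2 (4.23), Saa3 (4.20), Gsta3 (3.42) and Osbpl3, an oxysterol-binding protein (3.30), were the next largest increases between 1 and 8 h. Other genes passed their peak before 8 h. Tnf was at 11772, 13332 and 9803 at 1 h, above its values at 8 h in every genotype. Nfkbiz was at 3813, 3076 and 2974 at 1 h, fell after that (-2.88 ± 0.10, adjusted p = 1.28e-10) and was still above 0 h at 8 h. Egr1 was at 3619.8, 6032 and 3800.0 at 1 h (-3.31 ± 0.12, adjusted p = 1.60e-10) and below its 0 h values at 8 h. Slc7a5 was at 2458, 1932 and 2159.5 at 1 h, so its fall came between 1 and 8 h (-2.93 ± 0.12, adjusted p = 4.10e-10). Ffar2 (-3.08), Tcaf2 (-2.72) and Ch25h (-2.68) were also among the largest decreases in this interval.

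Between 8 and 24 h, 664 genes rose (4%) and 423 fell (2.55%), 6.55% in all, and these counts were 154 and 44 without the genotype term and 364 and 181 without the crel-/-relb-/- pair. Gsta2, a glutathione transferase, was at 39.3, 38.0 and 37.8 at 0 h, 122, 272 and 257 at 8 h and 638, 1196 and 937 at 24 h (2.13 ± 0.13, adjusted p = 6.13e-07). The larger late increases were in Adh7, an alcohol dehydrogenase (2.83), Cdkn1c, a cell cycle inhibitor (2.68), Lox, which cross-links collagen (2.58), Hp (2.34) and Heph, a copper-dependent iron oxidase (2.29). The largest decreases after 8 h were in Car4, a carbonic anhydrase (-2.50), and Fbp1, of gluconeogenesis (-2.50), ahead of Aldh3a1 (-2.11), Ccl17 (-1.86), Prg2 (-1.68) and Cstdc4 (-1.66). Ccl17 had changed by -0.31 from 0 to 8 h.

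**Figure D4:**
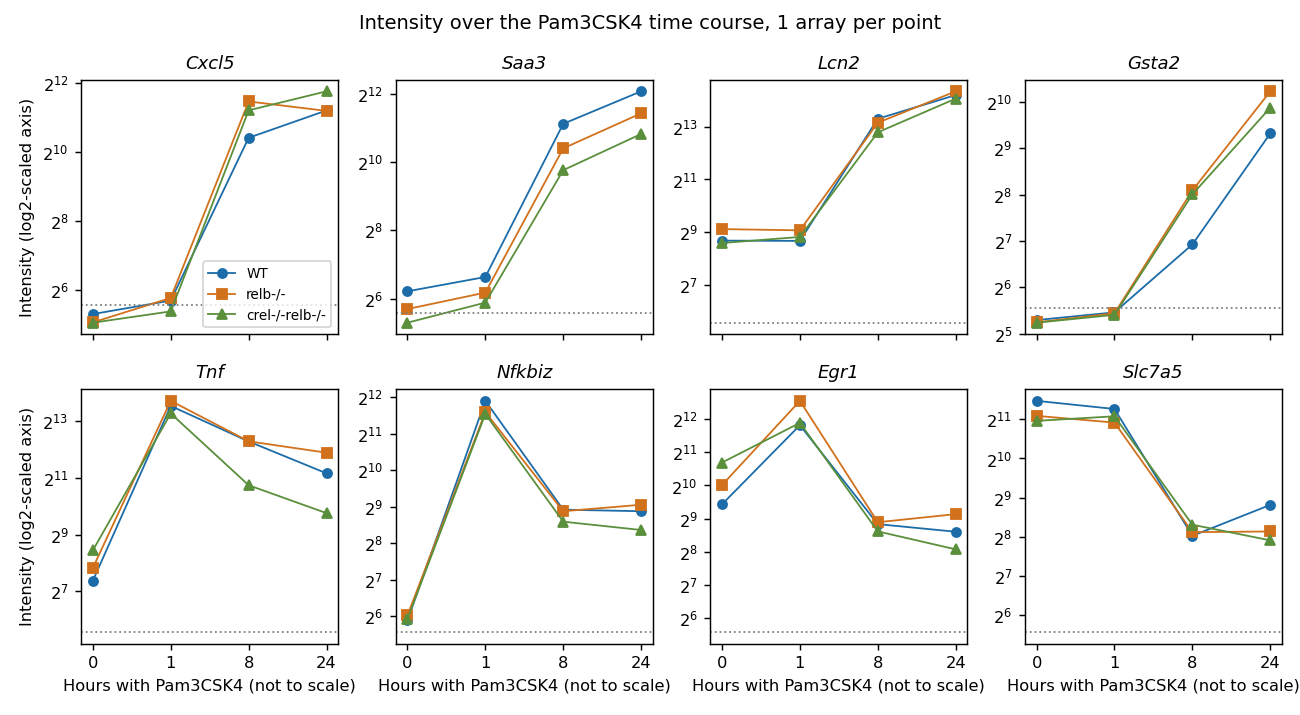
Normalized intensity (log2-scaled axis) of 8 genes at 0, 1, 8 and 24 h with Pam3CSK4 (time not to scale), 1 array per point and 1 line per genotype, with the median of all values dotted. Cxcl5, Saa3 and Lcn2 climb between 1 and 8 h and Gsta2 also between 8 and 24 h, whereas Tnf, Nfkbiz and Egr1 are highest at 1 h and Slc7a5 drops after 1 h.

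At 8 h Pam3CSK4 was also compared with CpG, a DNA ligand of TLR9, in the same 3 genotypes. Of 16593 genes 23 were higher with Pam3CSK4 (0.139%) and 35 lower (0.211%), 0.35% in all. Cxcl1 was at 2777, 8775 and 4301 with Pam3CSK4 and 988, 3622 and 1502 with CpG (1.43 ± 0.08, adjusted p = 3.34e-05). Il1b (0.88 ± 0.08, adjusted p = 0.00212) and Cxcl2 (0.88 ± 0.10, adjusted p = 0.00499) were higher in all genotypes too, as were Lox (1.25) and the glutathione transferases Gsta1 (1.04) and Gsta2 (0.88). Ccl12 was at 77.1, 54.8 and 47.4 with Pam3CSK4 and 205, 143 and 264 with CpG (-1.76 ± 0.17, adjusted p = 0.00212). Ccnd1, a D-type cyclin, was at 328, 268 and 245 against 704, 632 and 1009 (-1.46 ± 0.15, adjusted p = 0.00290). The other large differences were in interferon-related genes: Slfn1 (-1.79 ± 0.29, adjusted p = 0.0293), Oasl1 (-1.70 ± 0.29, adjusted p = 0.0381), Ifi204 (-1.15) and Ifi214 (-1.12) were lower with Pam3CSK4, most so in crel-/-relb-/-. Without that pair the difference was -1.17 for Slfn1, -1.08 for Oasl1 and -0.70 for Ifi214. The calls between agents rest on the genotype term: without it 0 genes were called higher and 0 lower by limma. At an unadjusted p under 0.05, 349 of the 16593 genes were then higher and 455 lower. A share of 0.05 of all genes would pass that threshold with no difference at all. With the term, the counts of calls were 37 and 97 without the WT pair and 43 and 121 without the relb-/- pair. The doses are not given in the labels, so whether they were matched is not known.

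**Figure D5:**
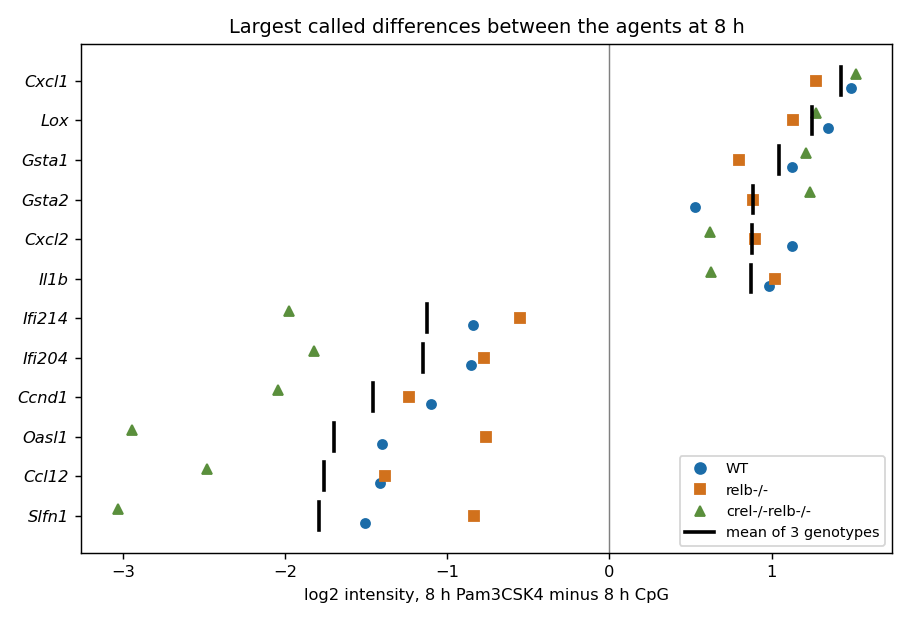
Log2 difference between Pam3CSK4 and CpG at 8 h (x axis) for the 12 genes with the largest called differences; each symbol is 1 genotype and the bar is their mean. Cxcl1, Lox, Gsta1, Gsta2, Cxcl2 and Il1b lie to the right of 0 in all 3 genotypes, and the 6 genes below them to the left, with crel-/-relb-/- the farthest.

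Markers of other cells moved in part. Of 12 neutrophil markers 5 were higher and 2 lower (3 higher without the relb-/- pair or by the mean of a gene's probes, and 2 higher and 1 lower without the genotype term). Their median was 0.05, and at an unadjusted p under 0.05 limma gave 5 higher and 5 lower, so they did not rise as a group. The summed intensity was between 1021 and 2737 at 0 h and between 2504 and 4855 at 8 h, and S100a8 held a large part of it at 8 h. S100a8, a calprotectin chain, was at 339, 825 and 1581 at 0 h and 1939, 2383 and 3711 at 8 h (1.76 ± 0.19, adjusted p = 3.55e-05), while Cxcr2, the neutrophil receptor for the leading chemokines, was at 167, 233 and 159 at 0 h and 47.4, 39.9 and 47.1 at 8 h (-2.04 ± 0.14, adjusted p = 8.98e-07), although its second, dim probe changed by 0.06. Mpo and Elane, granule genes of neutrophil precursors, were not called (0.09 and 0.01). Of 11 macrophage and monocyte markers 2 were higher and 3 lower. Adgre1, the gene of F4/80, was at 743, 1253 and 1218 at 0 h and 2617, 2437 and 3494 at 8 h (1.43 ± 0.14, adjusted p = 1.60e-05), and Mertk (-1.12), Fcgr1 (-0.95) and Mrc1 (-2.24) fell. Of 6 eosinophil markers 2 fell (1 without the genotype term), and their sum lay between 933 and 1620.5 at 0 h and between 483 and 853 at 8 h. Prg2, the eosinophil major basic protein, was at 557, 539 and 1005 at 0 h and 182, 230.2 and 449 at 8 h (-1.33 ± 0.12, adjusted p = 9.59e-06). Plasmacytoid, T and natural killer, and mast cell markers had 0 calls by limma in 7, 11 and 7 genes (0, 3 and 2 at an unadjusted p under 0.05). Over all 16593 genes, 2096 higher and 2169 lower passed that unadjusted threshold. B cell markers had 1 lower (0 without the relb-/- pair, the crel-/-relb-/- pair or the genotype term). Erythroid (0 without the genotype term) and stromal markers had 1 higher each. Without the relb-/- pair 2 T and natural killer markers were called lower and 1 plasmacytoid marker higher, and without the crel-/-relb-/- pair 1 T and natural killer marker was lower. Of 13 conventional dendritic cell markers, Id2 was higher (1.44) and Irf4 (-0.90) and Batf3 (-0.82) were lower. The part of these cells in the results above was not tested.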

How the data were processed

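Total RNA from bone marrow-derived dendritic cells was labelled with biotin and hybridised to Illumina mouse bead arrays, per the labels' protocols. The deposited values are linear probe intensities that the authors had normalized, for 25697 probes on 21 arrays, with array medians between 47.1 and 47.4. Their method of normalization was not stated in the labels or file headers, and background was left in. A second table of 21 unnormalized columns was not used, because its column names match no sample's labels, and no detection p-values were used. The number of arrays limits the precision.

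Intensities were taken to log2 without further normalization. All probes entered a fit in limma 3.58.1 (R 4.3.3, lmFit and eBayes with an intensity trend) on the 6 arrays of a comparison, with the genotype as a block, since each genotype gives 1 array per condition and the pairing is by genotype. This leaves 2 residual degrees of freedom beside a prior of 9.83. Tests were two-sided, with Benjamini-Hochberg adjustment over 25697 probes, and calls were made at adjusted p-values under 0.05. There were 4 such comparisons. A gene was read from its probe with the highest mean over all arrays. Of all probes, 23978 had 1 gene symbol in the platform's annotation, 0 had several and 1719 are unnamed here, and 23962 symbols were updated by Entrez identifier, which gave 16593 genes. Of 4777 genes with several probes, 6 had probes called in opposite directions.

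The genes named are the 15 largest increases and 12 largest decreases called with the same direction in 3 genotypes, list members, the 6 widest ranges over genotypes among genes with an array at least 4 times the median intensity, and 6 genes per direction in each other comparison. The groups came from the labels. The members were chosen by label and the lists by subject, both with earlier results of these data known. On simulated data for Pam3CSK4 8 h against 0 h, over 25697 probes, the fit recovered 48 of 50 probes changed by 0.5 on the log2 scale. It recovered 50 of 50 at each of 1, 2 and -1, and there were 13 false calls (6.16% of calls). The simulated noise was normal, with the spread estimated by the fit itself, and each change was the same in all 3 genotypes. Far fewer probes were changed than were called in the real data. Recovery of changes that differ between genotypes was therefore not tested. The alternatives were an additive model on all 21 arrays, a fit without the genotype block, leaving out each genotype pair, a filter on dim probes, quantile or cyclic loess normalization, normexp with an offset of 50, an offset of 16, no intensity trend, and the mean of a gene's probes. Promoter sequences are RefSeq's for GRCm38.p6, 250 bases before the start, searched on both strands for the kB consensus, TGANTCA, GAAANNGAAA and TATAAA.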

Additional observations from a re-analysis of the deposited data

How the results depend on the processing

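For Pam3CSK4 8 h against 0 h the counts of calls, 1240 higher and 1299 lower, stayed within 1.5 times under the additive model on all 21 arrays, the dim-probe filter, the normalizations, the offset, no intensity trend and the mean of probes; without the genotype (replicate) block they were 718 and 782. Leaving out 1 pair gave 930 to 1146 higher and 915 to 1143 lower. The counts of at least 2-fold changes stayed within 1.5 times under all alternatives run. Pam3CSK4 against CpG at 8 h, 23 higher and 35 lower, gave 0 and 0 without the replicate block, 21 to 43 and 28 to 121 without 1 pair, and 14 lower after the dim-probe filter. Against 1 h, 1266 and 1349 became 657 and 672 without the block, and 857 to 1239 and 858 to 1328 without 1 pair. For 24 against 8 h, 664 and 423 became 154 and 44 without the block, and 364 to 579 and 181 to 397 without 1 pair. The causes were not tested beyond what the fits themselves change: the block takes out level differences between genotypes, and leaving out a pair leaves 4 arrays. Of 3311 values of single genes for 8 h against 0 h over all alternatives, 3020 kept their side of the threshold, 291 were no longer called and 0 reversed. By gene, 172 of the 276 followed kept their call under all alternatives. Only genes called in the main fit were followed, so gains could not be counted. The pairing comes from the genotype labels, not from replicate numbers. Signal over background limits the dim genes: 67 genes called higher were below the median of all values in all arrays at 0 h, and 68 called lower were so at 8 h.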

Other observations

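Further gene groups were described in the comparison of Pam3CSK4 at 8 h with 0 h. Of 14 genes of heat shock and the unfolded protein response, 7 were higher and 2 lower, with a median of 0.31. Hspa1a, an inducible Hsp70 chaperone (1.88), and Hsph1, its large relative (1.45), led the increases. Hspa5, the endoplasmic reticulum chaperone BiP, rose by 0.70, while Ddit3, the stress factor CHOP (-0.94), and Xbp1 (-0.67) were lower.

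Of 19 death and survival genes, 7 were higher and 3 lower, with a median of 0.16. Gadd45b (1.85), the death receptor Fas (1.41), the TNF receptor Tnfrsf1b (1.31), Casp1, which processes interleukin-1 beta (1.10), and the survival factor Mcl1 (0.83) were higher. Gadd45a (-1.15) and Bcl2 (-0.99) were lower, so the relatives Gadd45a and Gadd45b moved in opposite directions. Of 19 lysosomal genes, 2 were higher and 2 lower (1 and 0 without the genotype term), with a median of 0.00, close to that of all genes.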
